A study of Mus musculus with 4 samples.

Results

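The 2-cell-like state is a rare and transient condition of mouse embryonic stem cells, in which a cell switches on genes otherwise used when the embryo has just begun to transcribe its own genome. A known set of chromatin proteins sets how often cells enter it, and 10 genes for such proteins are described here: Dppa2, Dppa4, Trim28, Setdb1, Chaf1a, Chaf1b, Pcgf6, Mga, Rif1 and Zmym2. They were taken by gene symbol from a table of 32592 genes. The list was drawn up with earlier results of these data known, and all 10 are reported whatever their values. Each symbol matched 1 row, and all 10 were among the 14890 genes with enough reads to be tested.

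As background, DPPA2 and DPPA4 act as a pair that activates Dux, the factor at the head of the 2-cell-stage program. The other 8 genes mostly act as repressors. TRIM28 and SETDB1 place trimethylation on lysine 9 of histone H3 at retrotransposons and nearby genes, CHAF1A and CHAF1B load histones behind the replication fork, and PCGF6 and MGA hold together a variant Polycomb complex, PRC1.6. RIF1 sets replication timing and heterochromatin, and ZMYM2 joins the LSD1-CoREST demethylase complex to its sites.

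Messenger RNA was sequenced from CCE cells, a feeder-free 129/Sv mouse embryonic stem cell line kept in leukemia inhibitory factor. The 2 samples labelled Eif4a2 knockdown came from cells infected with shRNAs against this gene (sheIF4A2-2, sheIF4A2-3). The 2 samples labelled control were infected with control shRNAs (shLuc, shEV). All 4 underwent 3 days of selection in 1 µg/mL puromycin and were harvested on day 4.5. Which sample got which shRNA is not in the labels. Nor do they say that the samples were separate cultures, and p-values here cover only the spread between the samples, which may be technical. In these bulk samples, fewer cells of a type and less RNA per cell cannot be told apart.

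The targeted gene went against its label. Eif4a2, an RNA helicase of translation (ENSMUSG00000022884), had 753 and 814 normalized counts in the knockdown-labelled libraries, against 531 and 379 in the control-labelled libraries. A normalized count is a read count as CPM on the library's effective size, as deposited. The log2 change of Eif4a2 was 0.80 (SE 0.15, limma adjusted p = 0.0140). It stood at 0.78 in the authors' deposited table. Directions below are therefore those of the labels. The knockdown-labelled libraries held 10646302 and 12009899 reads and the control-labelled libraries 13681765 and 4604200. Control replicate 2 was thus the shallowest, and reads differed more between the controls (chi-square per degree of freedom 13.3) than between the knockdowns (2.00). All 10 embryonic stem cell markers examined were detected in every library.

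Of the 10 regulators, 1 was called, at a limma adjusted p below 0.05: Mga fell, by 1.37-fold. Among all genes tested 23.0% were called, 12.4% lower and 10.5% higher (45.8% of the calls higher, against 68.4% with library size only as the scaling), so 1 of 10 is not more than the background. The median log2 change of the 10 genes was -0.13, and their median absolute log2 change was 0.13, against 0.27 over all genes tested. The libraries of the 2 groups did not overlap for 6 regulators. Of these, 5 were lower in the knockdown-labelled libraries (Dppa2, Trim28, Chaf1b, Mga and Zmym2), a pattern that 34.6% of all genes tested had. The sixth, Setdb1, was higher, as were 32.1% of all genes tested. In the authors' deposited table, Trim28 and Mga were called lower, 2 of the 10, where 12.0% of the genes tested here were called lower.

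The regulators also differed in how well the libraries of a group matched. From control replicate 1 to control replicate 2 the log2 difference was 0.56 for Trim28, 0.35 for Rif1 and 0.30 for Chaf1a, against a median absolute difference of 0.198 over all genes tested. The other 7 lay below that median. Between the knockdown-labelled libraries, Mga differed by 0.11 in size, against a median of 0.0955 over all genes, and the other 9 by less than that median.

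**Figure D1:**
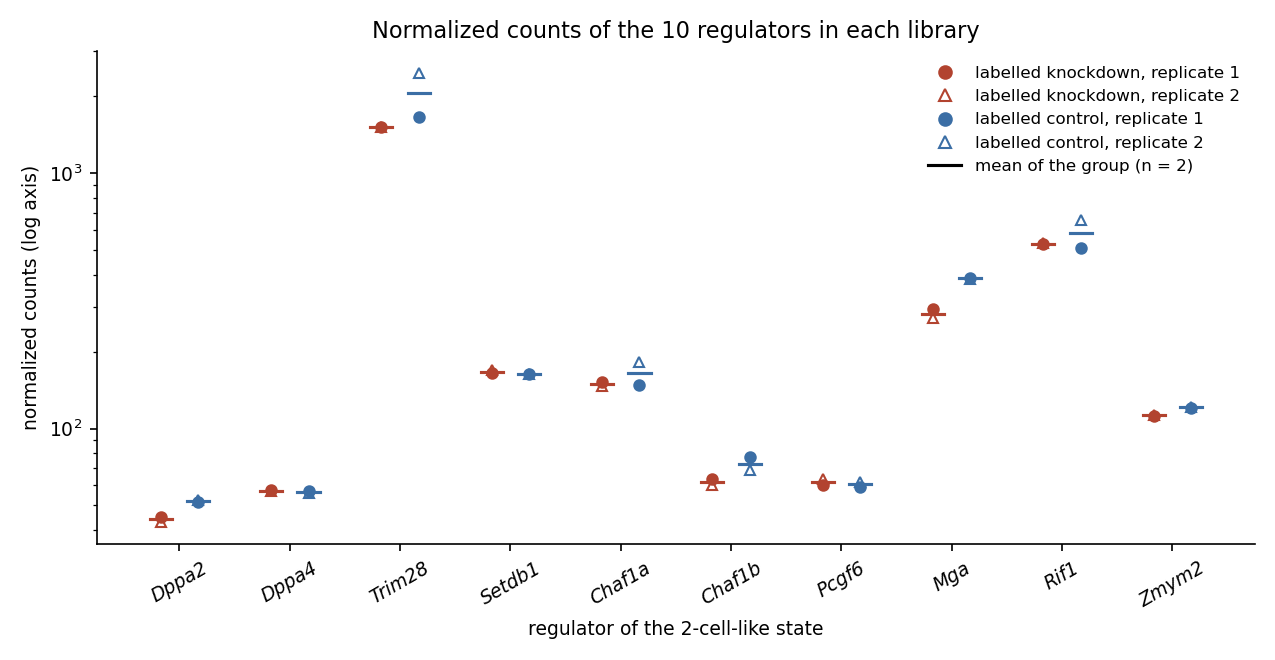
Normalized counts (log axis) of the 10 regulators in each library, with the knockdown-labelled libraries in red and left of the control-labelled libraries in blue; bars are group means (n = 2). Trim28 lay far above the rest, Mga separated the groups by more than the spread within either, and Trim28, Rif1 and Chaf1a were high in control replicate 2 alone.

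Levels can be compared between genes only per length. Per kilobase of exon sequence, averaged over the 4 libraries, Trim28 had 430.8 normalized counts, above 99.4% of the genes tested. Rif1 followed with 52.9, Dppa4 with 34.2 and Setdb1 with 24.1 normalized counts per kilobase. Mga stood at 21.8, Dppa2 at 19.7 and Chaf1a at 17.8, on the same scale. The lowest 3 were Zmym2 at 14.9, Chaf1b at 14.4 and Pcgf6 at 12.2, the last still above 65.8% of the genes tested. The ranges over the 4 libraries overlapped between Setdb1 and Mga, between Mga and Dppa2, between Dppa2 and Chaf1a, and between Zmym2 and Chaf1b. The other neighbours did not overlap. These ranges pool both groups and do not compare genes within a library. Within each library, Mga stood above Dppa2, and Dppa2 above Chaf1a. Setdb1 stood above Mga in both knockdown-labelled libraries and below it in both control-labelled libraries.

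The activator pair came first in role. Dppa2 (ENSMUSG00000072419) and Dppa4 (ENSMUSG00000058550) encode SAP-domain proteins that bind DNA together. They lie side by side on the plus strand of chromosome 16 in GRCm38, Dppa4 at 48283733 to 48294237 and Dppa2 at 48303908 to 48319723, with 9670 bases between them. Dppa2 had 45.0 and 43.1 normalized counts in the knockdown-labelled libraries, against 51.5 and 52.7 in the control-labelled libraries. Both knockdown values lay below both control values, but the log2 change of -0.24 (95% interval -0.47 to -0.0087) did not pass after adjustment (limma adjusted p = 0.118). The log2 change of Dppa2 was -0.12 with library size only as the scaling. Dppa4 had 57.3 and 56.8 normalized counts in the knockdown-labelled libraries, against 57.1 and 55.9 in the control-labelled libraries. The groups overlapped, and the log2 change of 0.014 had a 95% interval of -0.20 to 0.23. Within a library, the log2 ratio of Dppa4 to Dppa2 was 0.35 and 0.40 in the knockdown-labelled libraries, against 0.15 and 0.084 in the control-labelled libraries. This ratio does not depend on the scaling between libraries, and its groups did not overlap. It is not adjusted for GC content. With each library adjusted for GC content, the log2 change was -0.15 for Dppa2 and 0.031 for Dppa4. The smallest p that exact permutation of 2 and 2 libraries allows is 0.333, so the difference of 0.26 was not tested.

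Among the other known activators of the program, 3 were listed and 2 tested. Tbx3, a transcription factor of naive stem cells that raises Zscan4, fell to 441 and 435 normalized counts in the knockdown-labelled libraries, against 704 and 693 in the control-labelled libraries. Its log2 change was -0.67 (SE 0.08, limma adjusted p = 0.00394). Nelfa, a subunit of the negative elongation factor that drives the state when supplied in excess, was not called, with a log2 change of 0.15. Thus 1 of the 2 fell and 0 rose, where 12.4% of all genes tested fell and 10.5% rose. With library size only 1 fell and 1 rose. Dux itself, listed as Duxf3, had 1 read, in knockdown replicate 1. A library at 0 reads allows up to 3 reads, which is between 0.221 and 0.679 normalized counts, for counting error only. A difference of Dux below these levels was therefore not detectable at this depth.

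Trim28 and Setdb1 stood for H3K9 methylation. Trim28 (ENSMUSG00000005566, chr7:12999114-13031035 on the plus strand in GRCm38) encodes the scaffold that zinc finger proteins with a KRAB domain recruit to DNA. It had 1519 and 1521 normalized counts in the knockdown-labelled libraries, against 1664 and 2461 in the control-labelled libraries. The groups did not overlap, but control replicate 2 lay far above the other 3 libraries, and the mean was 1520.2 ± 1.15 in the knockdown-labelled libraries and 2062 ± 563 in the control-labelled libraries (SD, n = 2 each). The log2 change of -0.41 (95% interval -0.82 to -0.0037) was not called (limma adjusted p = 0.126), whereas the authors' deposited table calls it, at -0.44 with an adjusted p of 0.0268. Without control replicate 2 the log2 change of Trim28 was -0.13, and without control replicate 1 it was -0.69.

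Trim28 transcripts are also rich in G and C, at 59.6%, the highest of the 10 genes. Genes of similar GC content (the same of 10 equal bins) had a median log2 change of 0.19. With each library adjusted for GC content, Trim28 was called, at a log2 change of -0.64 (limma adjusted p = 0.0456, and 4.9e-31 to 0.333 over all alternatives). The smallest of these came from leaving out control replicate 1, where the spread is read from the knockdown pair.

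Setdb1, the methyltransferase that TRIM28 recruits (ENSMUSG00000015697, chr3:95323525-95357202 on the minus strand in GRCm38), had 164.6 and 169.6 normalized counts in the knockdown-labelled libraries, against 163.6 and 164.1 in the control-labelled libraries. The groups did not overlap, yet they lay so close that the log2 change was 0.028 (95% interval -0.15 to 0.21, limma adjusted p = 0.817). An exon of Cers2 on the other strand shares 75 bases with Setdb1, and whether the counting used strand is not given in the sources used here. Within a library the log2 ratio of Trim28 to Setdb1 was 3.21 and 3.16 in the knockdown-labelled libraries, against 3.35 and 3.91 in the control-labelled libraries. That ratio was lower in both knockdown libraries, by 0.44 on average, by 0.16 without control replicate 2 and by 0.72 without control replicate 1.

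**Figure D2:**
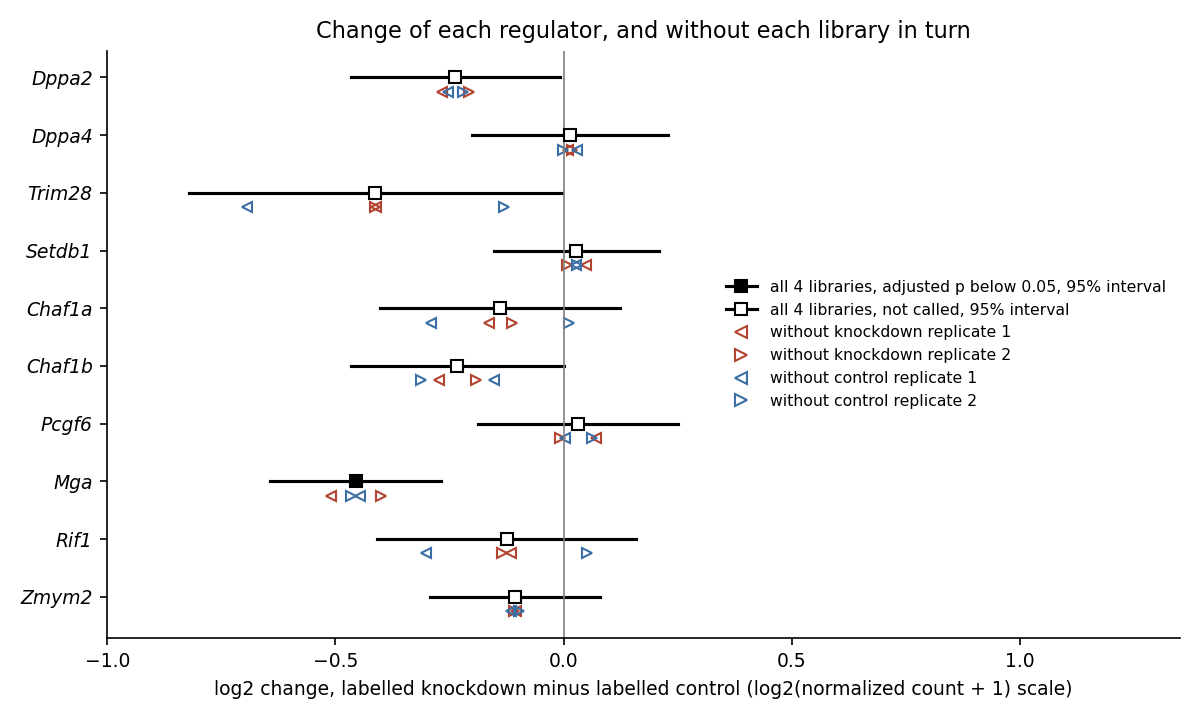
Log2 change of each regulator (labelled knockdown minus labelled control, log2 of the normalized count plus 1) with its 95% interval, and below it the value without each library in turn. Mga alone was called and its triangles lay between -0.51 and -0.40, while those of Trim28 ran from -0.69 to -0.13.

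Of 12 other genes of TRIM28-SETDB1 silencing tested, 3 fell and 1 rose (median log2 change -0.21), where 12.4% of all genes tested fell and 10.5% rose. The 3 that fell encode the heterochromatin proteins HP1, which read the mark. Cbx5 (HP1 alpha) had 454 and 397 normalized counts in the knockdown-labelled libraries, against 773 and 841 in the control-labelled libraries, a 1.9-fold decrease (limma adjusted p = 0.00372). Cbx1 (HP1 beta) fell 1.36-fold (adjusted p = 0.0114). Cbx3 (HP1 gamma), with 8.52 and 7.71 normalized counts in the knockdown-labelled libraries, against 12.5 and 14.9 in the control-labelled libraries, fell 1.61-fold (adjusted p = 0.0322), but processed pseudogene copies of Cbx3 make its read assignment uncertain. Suv39h1, another H3K9 methyltransferase, rose 1.23-fold (adjusted p = 0.0437). Cbx5 kept its call under all 14 alternatives, and the other 3 lost theirs when either knockdown library was left out. Cbx3 and Suv39h1 were also not called with DESeq2, with GC adjustment or without the filter on low counts, so that 2 fell and none rose under each of these.

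Chaf1a and Chaf1b encode the large and middle subunits of chromatin assembly factor 1 (CAF-1), whose loss is known to raise the share of 2-cell-like cells. Chaf1a (ENSMUSG00000002835, chr17:56040439-56072289 on the plus strand in GRCm38) had 151.8 and 146.6 normalized counts in the knockdown-labelled libraries, against 147.9 and 182.6 in the control-labelled libraries. Control replicate 2 was again the high one and the groups overlapped (log2 change -0.14, 95% interval -0.40 to 0.12). Without control replicate 2 the value was 0.012. An exon of Ubxn6 on the other strand overlaps Chaf1a by 2542 bases, so its reads are uncertain if counted without strand.

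Chaf1b (ENSMUSG00000022945, chr16:93883901-93906115 on the plus strand in GRCm38) had 63.6 and 60.1 normalized counts in the knockdown-labelled libraries, against 77.1 and 68.8 in the control-labelled libraries. The knockdown values lay below both control values, and the log2 change was -0.23 (95% interval -0.47 to 0.0016, limma adjusted p = 0.131). Within a library the log2 ratio of Chaf1a to Chaf1b was 1.26 and 1.29 in the knockdown-labelled libraries, against 0.94 and 1.41 in the control-labelled libraries. The knockdown ratios lay between the control ratios, so the 2 transcripts did not separate the groups in their balance.

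The windows of 250 bases before the transcript start of both CAF-1 genes are shown because each holds an E2F core, the letters GCGGGAA or, on the other strand, TTCCCGC, which E2F factors of the cell cycle and the PRC1.6 subunit E2F6 recognise. They are RefSeq promoters of GRCm38.p6, at chr17:56040166-56040415 and chr16:93883651-93883900 on the plus strand, and capitals mark the E2F core and the E-box, CACGTG, the palindrome that MGA and MAX recognise.
Chaf1a: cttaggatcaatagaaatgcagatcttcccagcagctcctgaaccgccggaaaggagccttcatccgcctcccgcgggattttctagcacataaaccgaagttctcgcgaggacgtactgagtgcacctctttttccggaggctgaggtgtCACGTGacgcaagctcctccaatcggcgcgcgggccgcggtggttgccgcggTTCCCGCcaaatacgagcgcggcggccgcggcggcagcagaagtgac
Chaf1b: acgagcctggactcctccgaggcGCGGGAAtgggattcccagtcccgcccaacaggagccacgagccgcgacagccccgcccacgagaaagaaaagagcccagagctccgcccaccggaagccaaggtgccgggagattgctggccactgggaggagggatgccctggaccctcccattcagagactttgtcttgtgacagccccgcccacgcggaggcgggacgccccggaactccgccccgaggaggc

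The core lay at -47 to -41 in Chaf1a and at -227 to -221 in Chaf1b, counted from the transcript start. Trim28 also held one, at -178 to -172 from its RefSeq transcript start. That window, chr7:13023902-13024151 on the plus strand, lies inside the GENCODE span of Trim28 given above. Of the 10 regulators 7 had a window in the table, with 8 windows in all. The E2F core was in 3 of these 8 windows, against 3.82% of all 32851 windows of that length. The E-box was in 1 of the 8, that of Chaf1a, and in 6.02% of all windows. A match of letters describes the sequence and does not show binding.

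Of 10 other histone deposition genes tested, 3 fell and none rose (median log2 change -0.24), where 12.4% of all genes tested fell and 10.5% rose. With library size only 1 fell and 1 rose. Ubn1, a subunit of the HIRA complex that deposits histone H3.3, had 50.8 and 46.3 normalized counts in the knockdown-labelled libraries, against 77.2 and 68.8 in the control-labelled libraries (1.49-fold lower, limma adjusted p = 0.0126). Asf1b, which hands H3-H4 dimers to CAF-1, fell 1.36-fold (adjusted p = 0.0200), and Nasp, which stores them, fell 1.29-fold (adjusted p = 0.0291). None of the 3 was called without knockdown replicate 2. Asf1b and Nasp also lost their calls with library size only, and Nasp with GC adjustment (log2 change -0.22, against -0.36).

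Pcgf6 and Mga belong to PRC1.6, which keeps germline and meiotic genes silent in embryonic stem cells. Mga (ENSMUSG00000033943, chr2:119897228-119969581 on the plus strand in GRCm38) encodes its scaffold, which pairs with MAX to bind DNA. It had 293 and 271 normalized counts in the knockdown-labelled libraries, against 389 and 384 in the control-labelled libraries. The groups were far apart relative to their spread, with a mean of 282 ± 15.1 in the knockdown-labelled libraries and 387 ± 3.50 in the control-labelled libraries (SD, n = 2 each). Mga fell by 0.46 on the log2 scale (SE 0.08, 95% interval -0.64 to -0.27, limma adjusted p = 0.0113). For Mga the authors' deposited table gives -0.46 on the log2 scale, with an adjusted p of 0.0309. Of all genes tested, 27.8% had a larger absolute log2 change. Log2 changes ran with GC content over all genes (Spearman's rho 0.27 across genes, which are not independent), and genes near the 42.2% GC of Mga had a median of -0.14. With GC adjustment Mga fell by 0.35 and stayed called. Its direction was the same under all 14 alternatives, with adjusted p from 1.95e-12 to 0.177. The call was lost without a variance trend (0.0573), without knockdown replicate 1 (0.0583) and without knockdown replicate 2 (0.177).

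Pcgf6, the ring finger subunit that defines the complex (ENSMUSG00000025050, chr19:47033617-47050906 on the minus strand in GRCm38), had 60.2 and 63.6 normalized counts in the knockdown-labelled libraries, against 59.2 and 61.8 in the control-labelled libraries. The groups overlapped, and the log2 change of 0.032 had a 95% interval of -0.19 to 0.25. The log2 ratio of Pcgf6 to Mga was -2.28 and -2.09 in the knockdown-labelled libraries, against -2.72 and -2.64 in the control-labelled libraries. Both knockdown ratios lay above both control ratios, with a mean difference of 0.49.

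**Figure D3:**
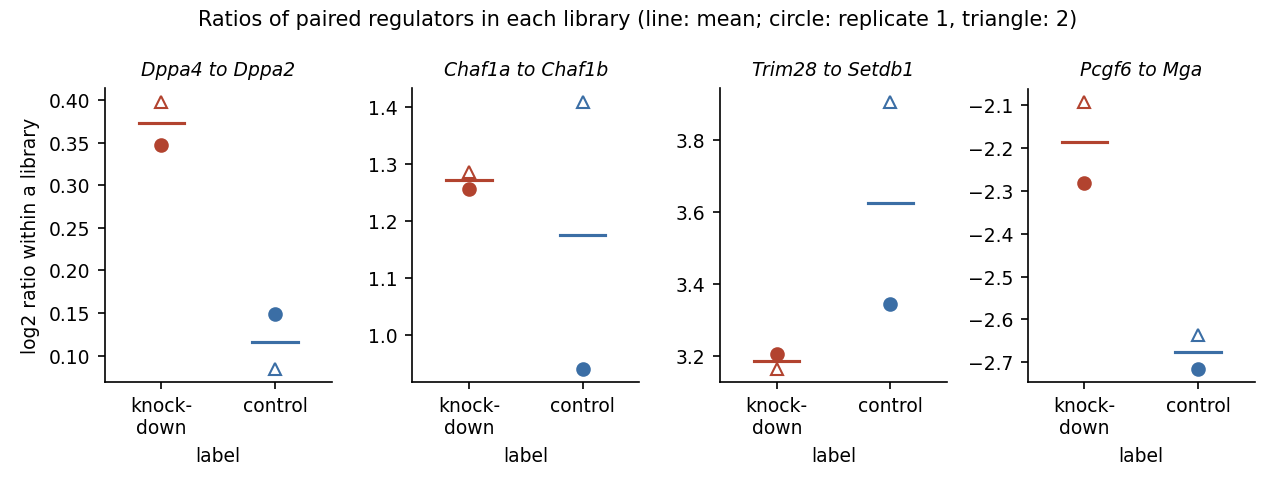
Log2 ratio of paired regulators within each library, with the knockdown-labelled libraries left of the control-labelled libraries; lines are group means (n = 2) and each panel has its own scale, which does not start at 0. The groups overlapped for Chaf1a to Chaf1b and did not for the other 3 pairs. Among single genes tested, 34.6% were lower without overlap and 32.1% higher without overlap. The share over other gene pairs was not computed, so the count of pairs is not read as a result.

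Of 12 other PRC1.6 subunits tested, 2 fell and none rose (median log2 change -0.10), where 12.4% of all genes tested fell and 10.5% rose. With library size only 0 fell and 1 rose. Wdr5, a WD40 adaptor shared with other chromatin complexes, had 403 and 405 normalized counts in the knockdown-labelled libraries, against 510 and 512 in the control-labelled libraries (1.26-fold lower, limma adjusted p = 0.0222). The other was Cbx3, described above. Neither was called with library size only as the scaling or when either knockdown library was left out.

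Rif1 (ENSMUSG00000036202, chr2:52072832-52122383 on the plus strand in GRCm38) had 526 and 533 normalized counts in the knockdown-labelled libraries, against 511 and 652 in the control-labelled libraries. Control replicate 2 was the high library here too, and both knockdown values lay between the controls. The log2 change of -0.13 (95% interval -0.41 to 0.16, limma adjusted p = 0.484) was 0.051 without control replicate 2 and 0.011 with GC adjustment. Of 8 RIF1 partners tested, 2 fell and none rose, where 12.4% and 10.5% of all genes tested did, although their median log2 change was 0.11. With library size only 1 fell and 2 rose, and with GC adjustment 1 fell and 1 rose. Ppp1cb, a catalytic subunit of the phosphatase PP1 that RIF1 carries to chromatin, fell 1.43-fold (adjusted p = 0.0120), and Blm, a helicase of replication fork repair, fell 1.21-fold (adjusted p = 0.0490). Neither was called without knockdown replicate 2 or without a variance trend. Blm passed narrowly: it was not called under 9 of the 14 alternatives, DESeq2, library size only (log2 change -0.15) and GC adjustment among them.

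Zmym2 (ENSMUSG00000021945, chr14:56886653-56962701 on the plus strand in GRCm38) had 112.4 and 112.8 normalized counts in the knockdown-labelled libraries, against 120.6 and 122.0 in the control-labelled libraries. The groups did not overlap on the deposited scale, where the log2 change was -0.11 (95% interval -0.29 to 0.079, limma adjusted p = 0.358), but it was 0.016 with library size only and 0.029 with GC adjustment. Scaling by library size only moved the median over all genes by 0.11, about the size of the Zmym2 value. Of 15 genes of LSD1-CoREST and of the MYM-type zinc finger family tested, 4 fell and 2 rose, while the median log2 change was 0.11. Of all genes tested, 12.4% fell and 10.5% rose. The balance within this list turned with the scaling: with library size only 0 fell and 3 rose, and with GC adjustment 1 fell and 1 rose. Zmym3, a family member in the same complex, had 131 and 124 normalized counts in the knockdown-labelled libraries, against 94.4 and 95.5 in the control-labelled libraries (1.34-fold higher, adjusted p = 0.0153). Its relative Zmym1 fell 1.29-fold (adjusted p = 0.0217). The CoREST subunit Hmg20b rose 1.51-fold (adjusted p = 0.0215). None of these 3 was called when either knockdown library was left out or without a variance trend. With GC adjustment, the log2 change of Hmg20b was 0.35 and not called.

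Of 15 other known repressors of the program tested, 3 fell and 1 rose (median log2 change -0.16), where 12.4% of all genes tested fell and 10.5% rose. With library size only 1 fell and 1 rose. Morc3, an ATPase of retroelement silencing, had 124 and 125 normalized counts in the knockdown-labelled libraries, against 158 and 160.0 in the control-labelled libraries (1.27-fold lower, limma adjusted p = 0.0219). Myc, whose loss lets 2-cell-like cells appear, fell 1.62-fold (adjusted p = 0.0268), and Ctcf, the insulator protein, fell 1.20-fold (adjusted p = 0.0468). None of these 3 was called without a variance trend. Morc3 was not called under 6 of the 14 alternatives and Ctcf under 8, DESeq2, library size only and GC adjustment among both. With library size only their log2 changes were -0.23 for Morc3, against -0.35, and -0.14 for Ctcf, against -0.26. For Myc the log2 change was -0.70, and -0.43 without control replicate 2. Where limma called 0 genes of a list in one direction, edgeR and DESeq2 also called 0 there. At an unadjusted p below 0.05 there was 1 histone deposition gene and 1 RIF1 partner that were higher, and 0 PRC1.6 subunits.

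**Figure D4:**
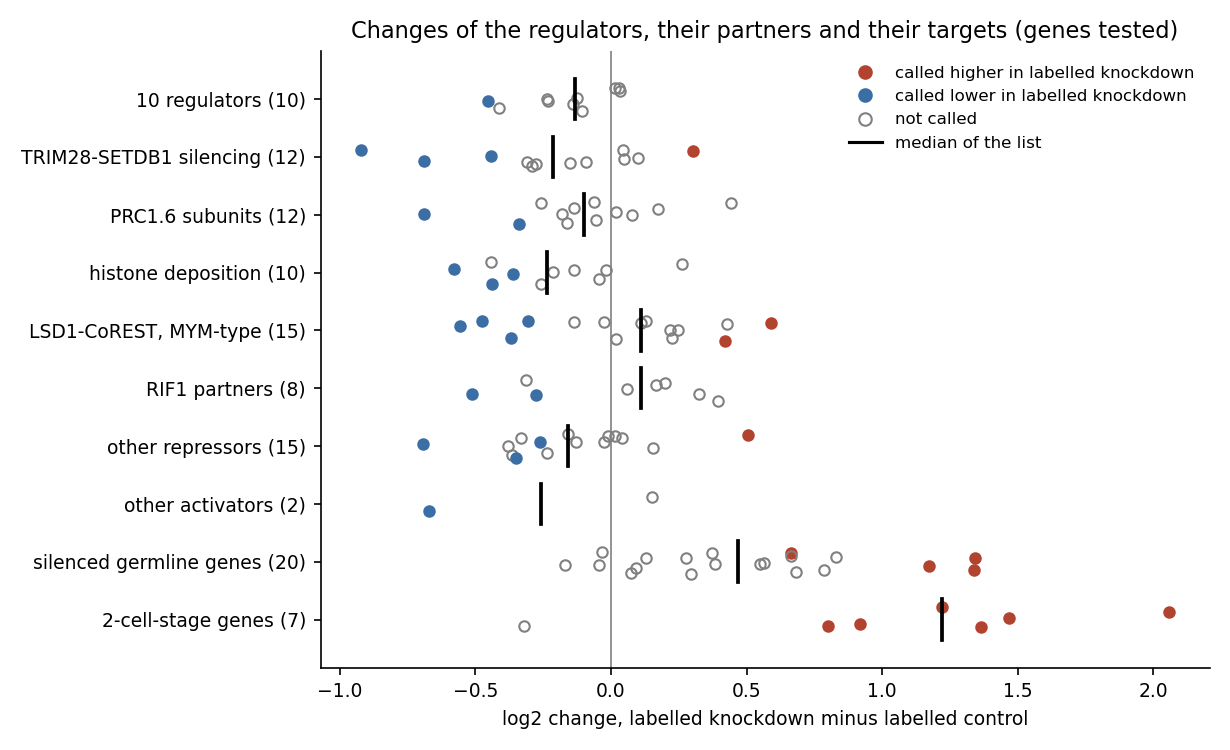
Log2 change (labelled knockdown minus labelled control) of each gene tested among the 10 regulators, their partners and the genes they act on; filled points were called and bars are list medians. Partners lay on both sides of 0, with Cbx5 lowest at -0.92, and the germline and 2-cell-stage genes lay mostly above 0, the 2-cell-stage list holding only the genes that passed the filter on low counts.

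The genes that these regulators act on were also read. Of 20 germline genes known to be silenced by PRC1.6 and related complexes, all tested, 4 rose and none fell. Of all genes tested, 10.5% rose and 12.4% fell. The 20 had a median log2 change of 0.47, against -0.011 over all genes. Their summed level was 262 and 261 normalized counts in the knockdown-labelled libraries, against 204 and 158 in the control-labelled libraries. Stra8, which licenses meiosis, had 19.8 and 24.6 normalized counts in the knockdown-labelled libraries, against 9.35 and 7.01 in the control-labelled libraries (2.53-fold, limma adjusted p = 0.00684). Tdrd1, a scaffold of the piRNA pathway, rose 2.53-fold (adjusted p = 0.00738). Taf7l, a germ cell form of a TFIID subunit, rose 2.26-fold (adjusted p = 0.00916), and Ddx4, the germ cell helicase also called Vasa, rose 1.58-fold (adjusted p = 0.0266). The number of the 20 called ran from 2 without knockdown replicate 2 to 11 without control replicate 1.

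The windows of these 4 genes are shown because they were the germline genes called and 3 of them hold the E-box. They are RefSeq promoters of GRCm38.p6, 250 bases before the transcript start, with the E-box and the E2F core in capitals. Positions are chr13:112652311-112652560 on the minus strand for Ddx4, chr19:56825959-56826208 on the plus strand for Tdrd1, chrX:134476491-134476740 on the minus strand for Taf7l, and chr6:34920698-34920947 on the plus strand for Stra8.
Ddx4: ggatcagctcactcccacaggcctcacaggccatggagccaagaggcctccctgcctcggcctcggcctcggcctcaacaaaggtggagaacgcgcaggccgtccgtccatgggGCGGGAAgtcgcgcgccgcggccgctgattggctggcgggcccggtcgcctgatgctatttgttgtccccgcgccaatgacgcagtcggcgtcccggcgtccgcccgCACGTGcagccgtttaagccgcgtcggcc
Tdrd1: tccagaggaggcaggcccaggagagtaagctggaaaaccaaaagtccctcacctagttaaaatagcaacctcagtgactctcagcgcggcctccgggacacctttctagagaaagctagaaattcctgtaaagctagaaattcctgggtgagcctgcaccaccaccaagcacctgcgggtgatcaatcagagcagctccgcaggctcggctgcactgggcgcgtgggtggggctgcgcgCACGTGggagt
Taf7l: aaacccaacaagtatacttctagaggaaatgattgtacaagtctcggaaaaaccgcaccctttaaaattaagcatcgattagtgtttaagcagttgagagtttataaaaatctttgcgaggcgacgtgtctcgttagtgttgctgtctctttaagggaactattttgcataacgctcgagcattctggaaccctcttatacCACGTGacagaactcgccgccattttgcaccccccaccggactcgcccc
Stra8: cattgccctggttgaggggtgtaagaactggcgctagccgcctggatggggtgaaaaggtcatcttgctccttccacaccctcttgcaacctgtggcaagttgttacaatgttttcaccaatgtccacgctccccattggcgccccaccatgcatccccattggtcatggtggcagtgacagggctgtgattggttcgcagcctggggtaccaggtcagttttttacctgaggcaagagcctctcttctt

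Ddx4 held both motifs, Tdrd1 and Taf7l the E-box, and the window of Stra8 held neither set of letters. Of the 20 germline genes 17 had windows examined here, 22 in all. An E-box was held by 11 of these 17 genes. It was in 63.6% of the 22 windows, against 6.02% of all windows. The E2F core was in 5 of the 17. Several windows of 1 gene can overlap and share a motif, and Tdrd1 has further windows that are not shown. The list was drawn up from genes known to be silenced by PRC1.6, whose MGA and E2F6 recognise these letters, so its share of motifs describes the choice of the list.

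Genes of the 2-cell stage, the program itself, stood at low levels. Of 33 listed, 22 were in the table, and their summed level was 38.4 and 44.7 normalized counts in the knockdown-labelled libraries, against 18.9 and 14.5 in the control-labelled libraries. Zfp750, chosen after its values were seen, supplied most of each sum, with 24.2 normalized counts in both knockdown-labelled libraries, against 15.5 and 11.8 in the control-labelled libraries. Zscan4d, a regulator of telomeres and genome activation, had 3.2 and 4.83 normalized counts in the knockdown-labelled libraries, against 0.147 and 0.226 in the control-labelled libraries (log2 change 2.06, limma adjusted p = 0.00472). At this low level the size depends on the pseudocount: the log2 change of Zscan4d was 3.27 with 0.25, 1.13 with 3, 4.50 by edgeR and 4.59 by DESeq2. Usp17le, of a deubiquitinase family, had 1.6 and 1.95 normalized counts in the knockdown-labelled libraries and no read in the control-labelled libraries. Gm8300 had 1.78 and 2.57 normalized counts in the knockdown-labelled libraries, against 0.221 and 0.226 in the control-labelled libraries. Gm12794 had 1.07 and 1.64 normalized counts in the knockdown-labelled libraries and no read in the control-labelled libraries. The families of Zscan4d and Usp17le hold near-identical copies, so assignment of their reads is uncertain. The filter on low counts passed 7 of the 22, and 6 of these were called higher, which is not read as support, since at such levels a gene passes only through the libraries where it is high.

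Markers of cell identity moved with the same groups, and their part in the results above was not tested. Of 10 embryonic stem cell markers 4 fell and none rose, where 12.4% of all genes tested fell and 10.5% rose. Summed levels of the 10 were 9573 and 9196 normalized counts in the knockdown-labelled libraries, against 12646 and 12268 in the control-labelled libraries. The 4 that fell were Zfp42, Klf4, Esrrb and Sox2, all transcription factors of pluripotency. Zfp42 fell most among the 4, 2.09-fold (limma adjusted p = 0.00256). Of 10 fibroblast markers 6 were tested and 2 rose, Col1a1 (2.42-fold, adjusted p = 0.0121) and Pdgfrb (1.9-fold, adjusted p = 0.0137). The fibroblast sum was 51.1 and 53.3 normalized counts in the knockdown-labelled libraries, against 32.7 and 31.9 in the control-labelled libraries, and the defining markers Lum and Dcn had 0 reads in all 4 libraries.

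Of 8 trophectoderm markers 7 were tested and 2 rose, where 10.5% of all genes tested rose. The 2 were Hand1 (3.09-fold, adjusted p = 0.0262) and Krt7 (2.24-fold, adjusted p = 0.0369), while Elf5 had 0 reads. The trophectoderm sum was 135 and 149 normalized counts in the knockdown-labelled libraries, against 112 and 78.7 in the control-labelled libraries. Of 8 primitive endoderm markers 0 were called by limma, 0 had an unadjusted p below 0.05, and edgeR and DESeq2 called 0. The nearest by p were Gata4, with a log2 change of 0.25, and Foxa2, with 0.47. The endoderm sum was 40.8 and 42.2 normalized counts in the knockdown-labelled libraries, against 33.7 and 42.5 in the control-labelled libraries.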

How the data were processed

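Poly(A) RNA of 4 samples, 1 µg each, was sequenced in single-end reads of 100 bp, per the labels' protocols. The submitters' processing notes name Bowtie2 2.3.4.3, SAMtools 1.9, HTSeq 0.11.2, edgeR 3.26.8 and build mm9. Strand setting and annotation release were not given in the sources used here. In the deposited table, the signal is a normalized count per gene on an effective library size, and 100% of its values are whole reads within 0.001 reads. Per the file headers, the authors' comparison holds a log2 fold change, a mean log2 CPM, a score (likelihood ratio) and p-values, raw and adjusted.

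The design assumed normalized values, so limma 3.58.1 (R 4.3.3) with a variance trend was fitted to log2 of the normalized count plus a pseudocount of 1, which understates changes of low genes. Genes passed edgeR 4.0.16 filterByExpr on recovered reads (14890 of 32592). Tests were two-sided, with Benjamini-Hochberg adjustment over all of them and a threshold of 0.05. They were checked on simulated data that gave both groups the same spread. The control libraries here differed more than the knockdown libraries, and the check does not cover that difference in spread. The 14 alternatives were limma without a trend, edgeR's quasi-likelihood test, DESeq2 1.42.0, scaling by library size only or by upper quartile, pseudocounts of 0.25 and 3, no filter, loess adjustment for GC content, a replicate block, and leaving out each of the 4 libraries. The members and the 13 other lists were chosen with earlier results of these data known. Genes named are all 10 members, Eif4a2 and, per list, up to 4 called genes with the smallest p, or 2 where none was called; a few of these are not reported here. Coordinates are GRCm38 (GENCODE M21), matched by ID. Intervals and floors cover counting error or the spread between samples only. Protein sequences were not used here.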

Additional observations from a re-analysis of the deposited data

How the results depend on the processing

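All genes called numbered 3418 (1567 higher, 1851 lower). Without a variance trend there were 1932 (864 lower), with DESeq2 1.42.0 there were 2204 (969 higher), and with library size only 996 were lower. The share of calls that were higher was 45.8%, against 68.4% with library size only. Leaving out 1 library, when the spread comes from the remaining pair, gave 653 to 7724 calls (259 to 3784 higher, 394 to 3940 lower). Regulators called numbered 1, against 0 without a trend and 2 with DESeq2 and with GC adjustment (Trim28 and Mga), and 0 to 5 when 1 library was left out: Dppa2, Trim28, Chaf1a, Mga and Rif1 without control replicate 1, and Chaf1b and Mga without control replicate 2. Genes called in the 9 other pathway and target lists numbered 31 of 97, against 15 without a trend and 5 to 59 without 1 library. Of all genes tested, 23.0% were called. The 31 include 6 genes of the 2-cell stage, whose calls were not read as support above. Eif4a2 kept its log2 change of 0.80 without a trend but not its call (adjusted p = 0.0581, from 3.03e-67 to 0.0581 over all alternatives).

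Some small log2 changes turned in sign. Without 1 library, Dppa4 ran from -0.0014 to 0.029, Chaf1a from -0.29 to 0.012, Pcgf6 from -0.0071 to 0.071 and Rif1 from -0.30 to 0.051. Rif1 was 0.011 with GC adjustment, and Zmym2 was 0.016 with library size only and 0.029 with GC adjustment. The difference of the Chaf1a to Chaf1b ratio, 0.10, ran from -0.14 to 0.33. The cause of these shifts was not tested. Gata4 and Foxa2 were the only list genes taken by the naming rule that had no call to lose. Of 37 list genes taken by the naming rule, 19 lost the call without knockdown replicate 1 and 27 without knockdown replicate 2.

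The labels do not pair the samples, and deviations of same-numbered samples correlated at 0.0356 over genes. With the replicate number as a block, 4632 genes and 2 regulators (Trim28 and Mga) were called. The shallowest library, at 4604200 reads, limits what can be seen of the 2-cell-stage genes.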
